A study of Homo sapiens with 9 samples.

Results

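The genes described here are GDF15 and 9 genes of the integrated stress response: DDIT3, ATF3, ATF4, CEBPB, TRIB3, PPP1R15A, ASNS, PSAT1 and PHGDH. They were chosen by symbol, and all 10 were found among the 11963 genes that the platform annotation pairs with a probe set of their own. Where a gene had several such probe sets, the brightest on average stands for it. The list was drawn up with earlier results of these arrays known. The low GDF15 and DDIT3 values after treatment were part of that choice, so both genes are described below with no p-value. They were part of the fit over all genes, and the fit's calls for them are given only as a description.

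Gene expression was measured on 1-colour Affymetrix arrays in HK-2 cells, an immortalised line from the proximal tubule epithelium of a human kidney. The 9 arrays fall into 3 groups of 3: untreated cells at 0 h, cells after 24 h of transforming growth factor β1 (TGFβ1) and cells after 48 h of TGFβ1. All groups were grown in the same medium with epidermal growth factor, hydrocortisone, triiodothyronine and insulin, transferrin and selenium, and each array holds RNA of plates pooled within 1 run of the experiment. The design text calls the 0 h group vehicle, the sample labels call it untreated, and none of the sources used here states how much TGFβ1 was added. Untreated cells at 24 h or 48 h were not analysed here, so TGFβ1 and time in culture cannot be told apart. The cell line is a single line, and replicates are runs on different days with consecutive passages.

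The integrated stress response joins several alarms to a single switch. Kinases that sense unfolded protein, lack of amino acids, viral RNA or lack of haem phosphorylate the translation factor eIF2. Most protein synthesis then slows, while the mRNA of the transcription factor ATF4 is translated more. ATF4 pairs with C/EBP proteins and activates genes for amino acid supply, further transcription factors such as DDIT3 (the protein CHOP), and feedback inhibitors such as PPP1R15A, which restores eIF2. GDF15, a secreted and distant member of the TGF-beta family, is induced by ATF4, by CHOP and by p53, is released by injured kidney tubules, and acts on the brainstem through the receptor GFRAL and its partner RET. Because ATF4 is regulated largely in translation, its mRNA level says little about ATF4 protein, which was not measured.

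The stretches just upstream of 4 of these genes are shown because GDF15, DDIT3 and CEBPB were the members that passed the test threshold in some fit, and ASNS is a textbook ATF4 target that was not lower. Each is the 250 bases before the most upstream start in the RefSeq promoter table (GRCh38.p14), read 5′ to 3′ along the gene. Capitals mark the C/EBP-ATF response element TGATGNAA, the TATA box TATAAA and the GC box GGGCGG, each searched on both strands, with no overlap between them. The windows are chr19:18385908-18386157 on the plus strand for GDF15, chr12:57520518-57520767 on the minus strand for DDIT3, chr20:50190333-50190582 on the plus strand for CEBPB and chr7:97872409-97872658 on the minus strand for ASNS.
GDF15: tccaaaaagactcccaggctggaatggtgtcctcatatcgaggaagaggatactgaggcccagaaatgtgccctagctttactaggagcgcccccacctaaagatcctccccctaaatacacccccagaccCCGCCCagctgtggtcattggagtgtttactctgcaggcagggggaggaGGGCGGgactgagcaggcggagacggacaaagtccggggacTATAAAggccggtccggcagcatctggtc
DDIT3: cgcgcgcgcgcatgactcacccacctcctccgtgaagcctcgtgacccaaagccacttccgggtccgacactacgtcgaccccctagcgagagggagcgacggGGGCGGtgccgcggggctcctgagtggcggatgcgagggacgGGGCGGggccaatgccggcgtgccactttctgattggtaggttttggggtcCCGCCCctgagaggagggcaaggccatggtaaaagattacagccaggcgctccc
CEBPB: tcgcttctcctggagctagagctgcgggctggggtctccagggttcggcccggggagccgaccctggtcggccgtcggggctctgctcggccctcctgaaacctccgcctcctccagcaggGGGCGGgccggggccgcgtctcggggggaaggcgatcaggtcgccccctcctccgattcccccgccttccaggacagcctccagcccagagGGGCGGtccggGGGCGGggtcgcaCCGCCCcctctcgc
ASNS: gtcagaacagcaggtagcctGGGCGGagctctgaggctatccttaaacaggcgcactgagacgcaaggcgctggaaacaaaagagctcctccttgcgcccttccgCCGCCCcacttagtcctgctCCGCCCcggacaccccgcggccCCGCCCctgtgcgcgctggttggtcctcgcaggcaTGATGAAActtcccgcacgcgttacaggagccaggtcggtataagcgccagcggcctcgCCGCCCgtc
The GDF15 window held a TATA box whose first base lies 29 bases before the start, and 2 GC boxes. DDIT3 had 3 GC boxes, CEBPB 4 and ASNS 5, the last together with TGATGAAA that begins 68 bases before the start. All 10 members matched the table. For each, only the window of the most upstream start was searched, although some have 2 or 3 windows. The shares that follow are over the windows of all starts of all genes. TGATGNAA stood in the windows of 2 of them, ASNS and ATF3, against 3.14% of all 35116 windows of that length. TATAAA stood in 4 of 10 member windows against 10.7% of all, and GGGCGG in 8 of 10 against 42.6%. The cAMP response element TGACGTCA, also searched, stood in 1 of 10, PPP1R15A, against 1.65% of all. A match is only a run of letters, and elements further away or inside a gene lie outside these windows.

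GDF15 carried by far the largest difference among the members. Values are log2 values of 1 probe set as the authors deposited them, so that 1 unit is a doubling. In untreated cells GDF15 was at 6.93, 7.96 and 6.69 in runs 1, 2 and 3, at 24 h of TGFβ1 at 2.56, 3.91 and 3.01, and at 48 h at 3.26, 3.83 and 3.17. Every treated array lay below every untreated array, with more than 2 log2 units between them, and the treated groups overlapped each other. Within runs 1, 2 and 3 the differences were −4.38, −4.05 and −3.68 at 24 h and −3.68, −4.13 and −3.52 at 48 h. The mean difference was −4.03 ± 0.40 (SE, 3 arrays per group) at 24 h, or 16.4-fold lower, and −3.77 at 48 h, or 13.7-fold lower. The 48 h level was 0.26 above the 24 h level, with a 95% interval of −0.64 to 1.16 that spans both directions.

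The size of this fall has a lower end that the array sets. The medians of the 9 arrays lie between 2.2 and 2.23, and no detection calls were used, so the treated values of 2.56 to 3.91 cannot be told from background and the fold may be compressed. The fall also rests on 1 of 2 probe sets. The other GDF15 set read between 0.88 and 1.46 on all 9 arrays, under every array's median, and separated no group. The set used carries the suffix _x_at, which Affymetrix gives to sets holding probes that can match other sequences. Whether other transcripts add to its signal was not tested.

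Among the transcription factors, DDIT3 was lower and ATF4 was not. DDIT3 encodes CHOP, a C/EBP-family factor that promotes cell death under prolonged stress. It was at 5.11, 4.69 and 4.35 in untreated cells, at 3.92, 4.14 and 3.99 at 24 h and at 3.95, 3.83 and 3.96 at 48 h. The lowest untreated array stood above all 6 treated arrays by a small margin, and the treated spreads of 0.11 at 24 h and 0.07 at 48 h were narrower than the untreated spread of 0.38 (SD, n = 3 each). The mean difference was −0.70 ± 0.19 (SE) at 24 h and −0.80 at 48 h, that is 1.62-fold and 1.74-fold lower, and it was smallest in run 3 at both times. The treated values partly lie in the range where GDF15 could not be told from background, so these folds may be compressed too.

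ATF4 is the central factor of the pathway. Its level was 9.29, 9.69 and 9.28 in untreated cells, 9.42, 9.72 and 9.69 at 24 h and 9.47, 9.68 and 9.52 at 48 h. The groups overlapped, and all 9 arrays lay between 9.28 and 9.72. The difference was 0.19 at 24 h (95% interval −0.17 to 0.54, adjusted p = 0.612 in limma over 4368 genes) and 0.14 at 48 h (−0.22 to 0.49, adjusted p = 0.822).

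CEBPB encodes C/EBPβ, a partner with which ATF4 forms dimers. It was at 8.46, 8.43 and 8.88 in untreated cells, at 7.82, 7.92 and 8.60 at 24 h and at 7.79, 7.56 and 8.12 at 48 h. All 48 h arrays lay below all untreated arrays, whereas at 24 h the run 3 array reached into the untreated range. The difference was −0.48 ± 0.24 (SE) at 24 h (adjusted p = 0.374) and −0.77 at 48 h (adjusted p = 0.136), neither past the threshold of 0.05. It passed in the limma fit with the run as a block (adjusted p = 0.0409 at 24 h and 0.00533 at 48 h). Its differences within runs 1, 2 and 3 were −0.65, −0.51 and −0.28 at 24 h and −0.67, −0.87 and −0.76 at 48 h. ATF3, an early stress-induced repressor, stayed between 2.44 and 3.32 on all 9 arrays. Genes had to reach a log2 value of 4 on 3 or more arrays to be tested, which ATF3 did not, and its groups overlapped.

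**Figure D1:**
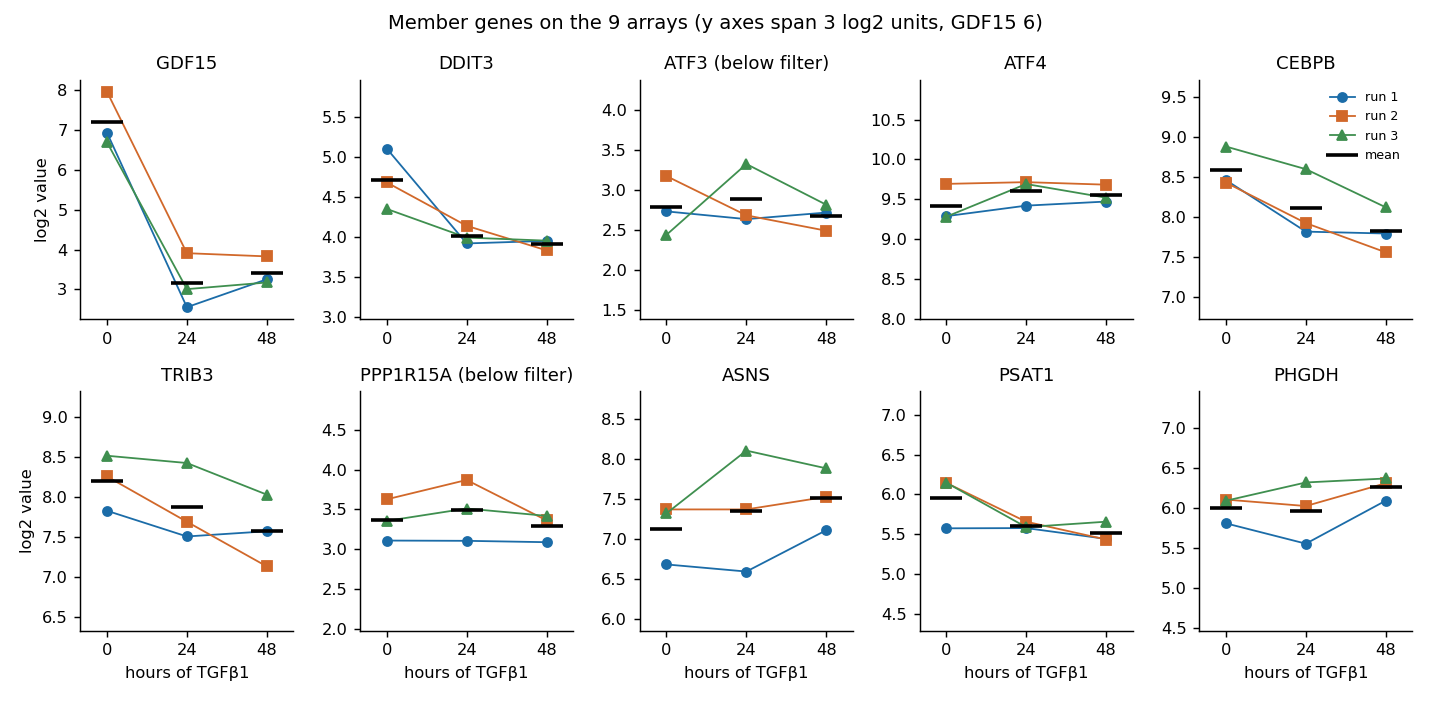
Log2 value (y axis) of each of the 10 genes at 0, 24 and 48 h of TGFβ1 (x axis), with a line for each of the 3 runs and a black bar for the mean of 3 arrays. GDF15 lies between 2.56 and 3.91 on the treated arrays and above 6 on the untreated ones, DDIT3 and CEBPB lie lower after TGFβ1, and ATF4 stays between 9.28 and 9.72.

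The feedback inhibitors gave no difference past the threshold. TRIB3, a pseudokinase induced by ATF4 and CHOP that restrains ATF4, was at 7.83, 8.26 and 8.52 in untreated cells, at 7.50, 7.69 and 8.42 at 24 h and at 7.57, 7.13 and 8.03 at 48 h. It was lower in all 3 runs at both times, but the groups overlapped because run 3 was high throughout. The difference was −0.33 ± 0.30 (SE) at 24 h (adjusted p = 0.656) and −0.62 at 48 h (95% interval −1.30 to 0.05, adjusted p = 0.422; 0.059 with the run as a block). PPP1R15A encodes GADD34, the stress-induced subunit that directs a phosphatase to eIF2. Its brighter probe set read 3.09 to 3.87 and its other set 1.96 to 2.55 over the 9 arrays, both under the filter and with overlapping groups.

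The amino acid enzymes did not move as a block. ASNS, asparagine synthetase, was at 6.68, 7.37 and 7.32 in untreated cells, at 6.59, 7.37 and 8.11 at 24 h and at 7.11, 7.53 and 7.89 at 48 h. Run 3 at 24 h was the highest of the 9 arrays and set the mean difference of 0.23 ± 0.37 (SE, adjusted p = 0.82); without that array the difference was −0.14. At 48 h ASNS was higher in all 3 runs, by 0.43, 0.16 and 0.56, and the mean of 0.38 was not past the threshold (95% interval −0.44 to 1.21, adjusted p = 0.775).

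PHGDH and PSAT1 catalyse the first steps of serine synthesis, one after the other. PHGDH was at 5.81, 6.11 and 6.09 in untreated cells, at 5.56, 6.03 and 6.32 at 24 h and at 6.09, 6.31 and 6.37 at 48 h. Its difference was −0.04 ± 0.20 (SE) at 24 h (adjusted p = 0.962) and 0.26 at 48 h (adjusted p = 0.698), higher in all 3 runs at 48 h. A further probe set listed for PHGDH together with MZT2A and MZT2B was brighter, but it lists several genes and was not used for PHGDH. It read 9.14, 9.18 and 9.01 in untreated cells, 9.14, 9.14 and 9.44 at 24 h and 9.08, 9.13 and 9.15 at 48 h. At 48 h this further set was lower in runs 1 and 2 and higher in run 3, so it did not repeat the rise in all 3 runs.

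The mean of PSAT1 was lower at both times, with neither difference past the threshold. It was at 5.58, 6.15 and 6.15 in untreated cells, at 5.58, 5.66 and 5.59 at 24 h and at 5.44, 5.44 and 5.66 at 48 h. In runs 2 and 3 it was lower at both times, while in run 1 the untreated array was already at the treated level. The difference was −0.35 ± 0.17 (SE) at 24 h (adjusted p = 0.366) and −0.44 at 48 h (95% interval −0.83 to −0.06, adjusted p = 0.256; 0.0992 with the run as a block).

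**Figure D2:**
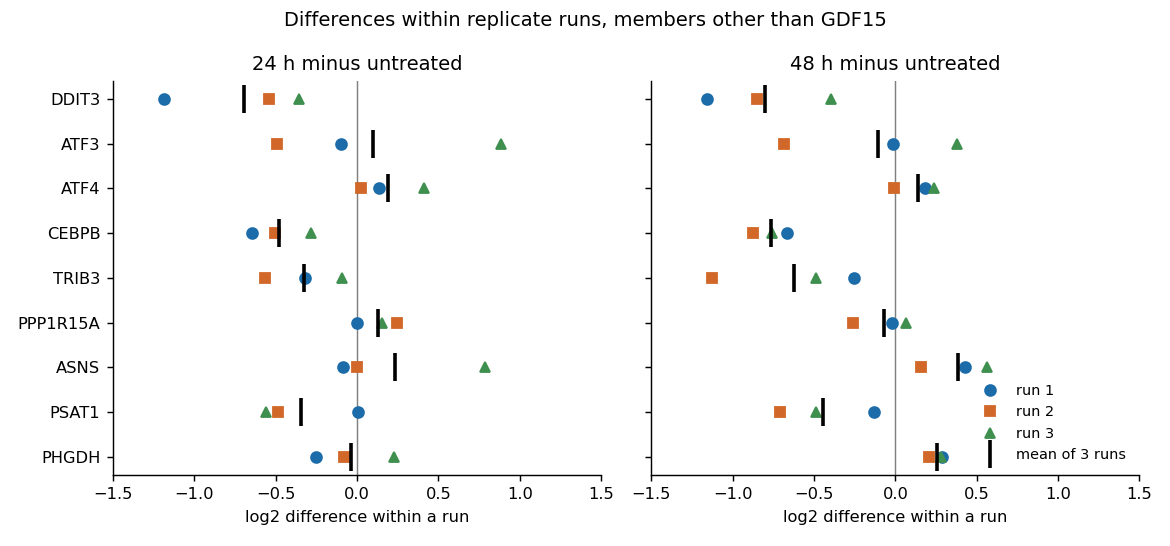
Log2 difference within each run (x axis) of the 9 members other than GDF15, at 24 h (left) and 48 h (right) of TGFβ1 minus untreated, with symbols for the runs and a bar for their mean. DDIT3, CEBPB and TRIB3 lie left of 0 in every run at both times, and ASNS and PHGDH lie right of 0 in every run at 48 h.

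The limma fit called 1 of the 8 tested members lower at 24 h (GDF15) and 2 at 48 h (GDF15 and DDIT3), against 2.17% of all 4368 genes called lower at 24 h and 2.17% at 48 h. None was called higher, against 2.63% and 2.27% of all genes. In either direction the shares of all genes were 4.81% and 4.44%. DDIT3 kept its 48 h call without untreated replicate 3, and the count at 48 h was 1 without any other array. With the run as a block the calls were GDF15, DDIT3 and CEBPB at both times, 3 of 8, against 5.52% and 4.81% of all genes called lower, 5.95% and 5.22% called higher and 11.5% and 10.0% called in either direction. Without the block these counts consist of GDF15 and DDIT3 alone, whose low values led to their choice, so nothing is read from them against the shares of all genes. Both also passed the filter mainly through the untreated arrays, GDF15 with 3 arrays at 4 or more, all untreated, and DDIT3 with 4, of which 3 were untreated.

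The 6 members that passed the filter on all 9 arrays give a plainer picture. None passed the threshold at 24 h or 48 h in the fit without the block, and CEBPB passed at both times with it. At 24 h 2 of the 6 were lower in all 3 runs (CEBPB and TRIB3) and 1 was higher in all 3 (ATF4), against 19.8% and 24.9% of all genes. At 48 h 3 of the 6 were lower in all 3 runs (CEBPB, TRIB3 and PSAT1) and 2 were higher (ASNS and PHGDH), against 18.2% and 23.2%. At 24 h the groups overlapped for all 6, whereas 7.72% of all genes were lower without overlap and 8.68% higher. At 48 h they did not overlap for CEBPB alone, which was lower, against 8.31% of all genes lower and 9.75% higher. The median difference of the 6 was −0.18 at 24 h and −0.15 at 48 h, beside 0.02 and 0.02 over all genes tested.

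Between 24 h and 48 h no member and none of the 4368 tested genes was called by limma, with or without the block (0.0% of all genes). At an unadjusted p under 0.05 there were 219 genes without the block, no member among them, and 709 with it, 2 members among them. CEBPB was lower at 48 h than at 24 h in all 3 runs, by 0.02, 0.37 and 0.48, and PHGDH was higher in all 3, by 0.54, 0.29 and 0.05, as were 22.3% (lower) and 21.1% (higher) of all genes. The mean differences were −0.29 for CEBPB (95% interval −0.83 to 0.25) and 0.29 for PHGDH (−0.16 to 0.74).

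The further genes of the pathway come from lists that were also drawn up with earlier results known, so their p-values are given only as a description. Of all 4368 genes 4.81% passed at 24 h and 4.44% at 48 h, and 11.5% and 10.0% with the run as a block. The lists are short, so no count of passes in them is read against these shares. No gene passed among 12 tested genes for the eIF2 kinases, eIF2 and its exchange factor eIF2B, whose median difference was −0.08 at 24 h and −0.02 at 48 h. The smallest p among them belonged to EIF2B3 (0.51, adjusted p = 0.203 at 24 h), a subunit of eIF2B, and to the adaptor NCK1 (−0.39, adjusted p = 0.236). Of 21 other target genes of ATF4 and CHOP, 18 had a probe set of their own and 10 were tested. None of the 10 passed at 24 h or 48 h, and the medians were −0.30 and −0.33. At both times 3 of the 10 had a positive difference, beside 2287 and 2388 of 4368 genes. The differences ran from −1.18 to 0.47 at 24 h and from −0.80 to 0.46 at 48 h. In that list SQSTM1, an autophagy receptor, was at −0.73 at 48 h (adjusted p = 0.234; 0.0142 with the block), and XPOT, which exports tRNA from the nucleus, was at 0.46 (adjusted p = 0.2; 0.0395 with the block).

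Of the amino acid transporters, SLC7A11 was higher at both times. SLC7A11, the cystine transporter and an ATF4 and NRF2 target, was at 3.40, 3.53 and 3.35 in untreated cells, at 5.49, 5.24 and 4.36 at 24 h and at 6.11, 6.89 and 6.18 at 48 h. All treated arrays lay above all untreated ones, and the log2 difference was 1.60 ± 0.30 (SE) at 24 h (adjusted p = 0.0153) and 2.97 at 48 h (adjusted p = 0.000533). SLC7A11 passed the filter through its treated arrays alone, so a tested difference was bound to be a rise. The p-values of SLC7A11 are therefore only a description. Its untreated values lie where GDF15 in treated cells could not be told from background, and its differences may be compressed. Its 24 h call was lost without 24 h replicate 2 (adjusted p = 0.0565), untreated replicate 1 (0.0621) or untreated replicate 3 (0.0513), and without all of run 1 (0.219) or run 2 (0.0687). It was the only gene of 8 tested transporters past the threshold. With the block 2 more passed at 24 h, SLC7A5 (1.06, adjusted p = 0.0259; 0.191 without the block), which carries large neutral amino acids, and SLC7A6 (0.40, adjusted p = 0.0457; 0.398 without), and at 48 h SLC38A2 (0.48, adjusted p = 0.0457; 0.246 without), which carries small ones. These 3 were named after their values were seen. SLC7A5 reached a log2 value of 4 on 7 arrays, of which 1 was untreated, so it passed the filter mainly through its treated arrays. Its untreated values were 3.68, 5.04 and 3.86, and its groups overlapped at both times. At 48 h its difference in run 2 was −0.39. At both times 7 of the 8 had a positive difference, and the medians were 0.37 and 0.24.

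The cytosolic aminoacyl-tRNA synthetases load amino acids onto tRNA, and many are ATF4 targets. All 16 tested had a positive difference at 24 h and 14 at 48 h, beside 2287 and 2388 of 4368 genes, with medians of 0.24 and 0.21. VARS1, the enzyme for valine, rose at 24 h, with 5.67, 5.95 and 6.31 in treated cells against 4.64, 4.88 and 5.12 in untreated cells, a difference of 1.10 ± 0.24 (SE, adjusted p = 0.0295). That call was lost without 24 h replicate 2 (adjusted p = 0.0802), 24 h replicate 3 (0.115), untreated replicate 1 (0.119) or untreated replicate 2 (0.0616), and without any whole run (0.0859 to 0.185). At 48 h VARS1 was at 4.84, 5.50 and 5.52, and the groups overlapped (0.41, adjusted p = 0.543). With the block SARS1, WARS1 and HARS1 passed as well at 24 h (0.53, 0.47 and 0.50, adjusted p = 0.047, 0.0231 and 0.0472, and 0.187 to 0.351 without the block), again named after their values were seen.

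No gene passed among 8 tested enzymes of serine, folate cycle and amino acid synthesis outside the members, with medians of 0.01 and 0.00. The smallest p there belonged to GOT1, the cytosolic aspartate aminotransferase (−0.35 at 24 h, adjusted p = 0.283), and to the mitochondrial folate enzyme MTHFD2 (0.40 at 48 h, adjusted p = 0.367). Likewise none passed among 12 genes of the ATF6 and XBP1 branches of the unfolded protein response, where DNAJB9, a chaperone of the endoplasmic reticulum, was at −0.56 at 48 h (adjusted p = 0.238) and XBP1 at 0.47 (adjusted p = 0.37). Medians were 0.07 and −0.07. None passed among 7 mitochondrial stress genes either (medians 0.04 and −0.17), where the co-chaperone DNAJA3 was at 0.37 at 24 h (adjusted p = 0.233) and the protease CLPP at −0.22 at 48 h (adjusted p = 0.722).

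Outside the members, 1 of 5 tested ATF and C/EBP factors changed. CEBPD, the delta member of the C/EBP family, was at 9.21, 8.86 and 9.45 in untreated cells, at 7.38, 6.91 and 7.56 at 24 h and at 7.51, 6.95 and 7.63 at 48 h. It fell by 1.89 ± 0.24 on the log2 scale (SE, adjusted p = 0.0019) at 24 h and by 1.81 at 48 h (adjusted p = 0.00262), with no overlap between treated and untreated arrays. Without run 1 the adjusted p was 0.104 at 24 h and 0.131 at 48 h. The median of the 5 was −0.07 at 24 h and −0.01 at 48 h.

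GDF15 is also a p53 target, and the list of RET and p53 pathway genes held 3 tested genes, of which 1 had a higher and 2 a lower mean at both times. TP53I3, an oxidoreductase gene, averaged 3.96 ± 0.49 without TGFβ1, 6.55 ± 0.47 after 24 h and 5.94 ± 0.46 after 48 h (SD, n = 3 each), with no overlap between treated and untreated arrays. It rose by 2.59 ± 0.33 (SE, adjusted p = 0.0018) at 24 h and by 1.98 at 48 h (adjusted p = 0.00845), and without run 1 the adjusted p was 0.114 and 0.223. CDKN1A, the CDK inhibitor p21, named after its values were seen, was lower without overlap at both times, at −0.93 (adjusted p = 0.103; 0.00773 with the block) and −1.04 (adjusted p = 0.0659; 0.00455 with the block). Of the 3, TP53I3 was the only gene past the threshold without the block, and the medians were −0.52 and −0.21. As this list was drawn up with earlier results known, the p-values of TP53I3 are only a description.

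**Figure D3:**
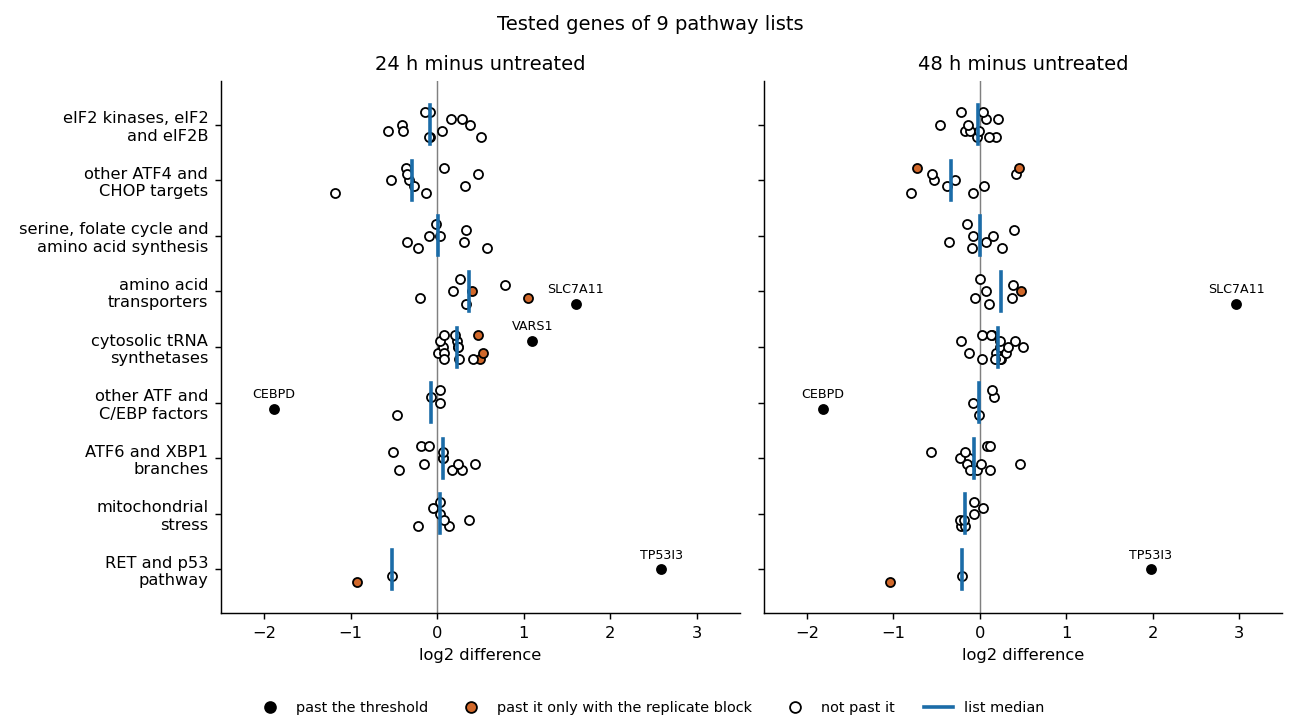
Log2 difference (x axis) of each tested gene in 9 pathway lists at 24 h (left) and 48 h (right) of TGFβ1 minus untreated. Black points passed an adjusted p of 0.05, orange points passed it only with the run as a block, and blue bars are list medians; CEBPD lies far left, SLC7A11 and TP53I3 far right, and all synthetases right of 0 at 24 h.

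Genes most like GDF15 over the 9 arrays included a sodium channel subunit and the tight junction gene CLDN1. By Pearson correlation of log2 values the 8 highest of 4367 tested genes were SCNN1A (0.995), MAL (0.977), ID2 (0.974), CLDN1 (0.973), TBL1X (0.973), CD9 (0.973), ISYNA1 (0.968) and ZDHHC7 (0.967). SCNN1A, a subunit of the sodium channel ENaC, had 6.11, 6.89 and 6.22 in untreated cells, 2.75, 3.92 and 2.97 at 24 h and 3.54, 3.99 and 3.11 at 48 h, and like GDF15 it was highest in run 2 within each group. SCNN1A passed the filter through its 3 untreated arrays alone. Its treated values lie about where those of GDF15 could not be told from background, and what this adds to the correlation was not tested. The 9 points share the 3 groups and the 3 runs, so the correlation describes these arrays and carries no test. The members stood lower in that order: DDIT3 had a correlation of 0.864 (rank 68), PSAT1 0.735 (rank 198), CEBPB 0.605 (rank 370) and TRIB3 0.440 (rank 681), while PHGDH (−0.09), ASNS (−0.22) and ATF4 (−0.25) were negative. The low treated values of GDF15 and DDIT3 were part of their choice, so the correlation between them was in part set by it.

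**Figure D4:**
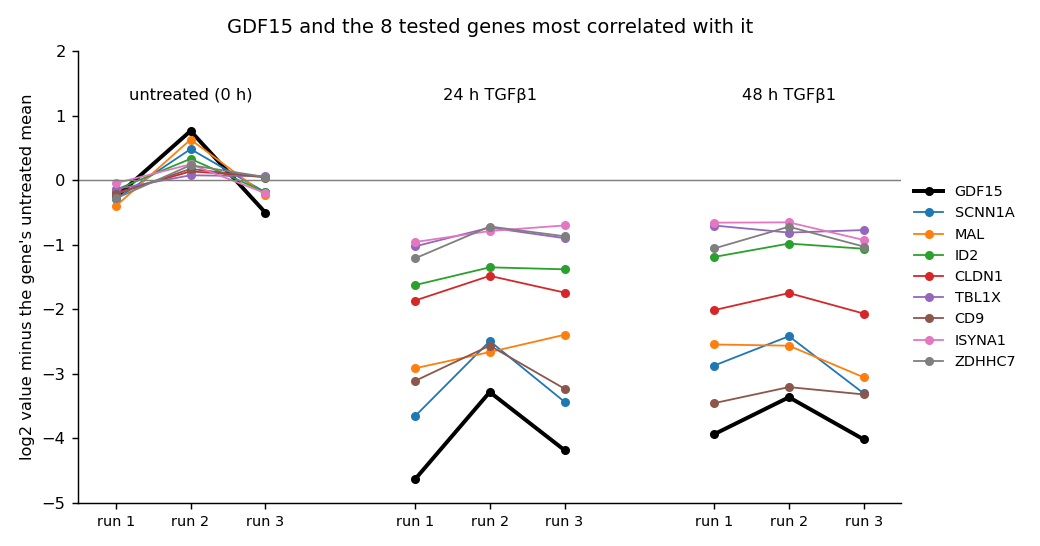
Log2 value minus the mean of the 3 untreated arrays (y axis) for GDF15 (thick black line) and the 8 genes most correlated with it, on each array by group and run (x axis). All 9 genes lie lower on all 6 treated arrays, GDF15 by the most.

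Cell type markers moved in part with these results. Of 9 proximal tubule and epithelial markers 5 were tested, and PAX8 (−0.60 at 24 h and −0.81 at 48 h) and EPCAM (−1.27 and −1.17) fell at both times (adjusted p from 0.00116 to 0.0233). KRT8 was at 0.65 and 0.46, past the threshold only at 24 h with the block (adjusted p = 0.0123), and KRT18 and KRT19 did not pass. The summed linear level of the 9 was 1650 to 2120 at 24 h, 1460 to 1810 at 48 h and 1910 to 2320 in untreated cells. The 24 h range overlapped the untreated range, and KRT18 and KRT19, the highest of the 9, weigh most in this sum. LRP2, CUBN and AQP1, which define the mature proximal tubule, and KRT7 never exceeded 2.80, whereas PAX8, EPCAM, KRT8, KRT18 and KRT19 were expressed in all groups. Of 4 fibroblast markers LUM was expressed and not called, and the others stayed at or below 3.18 and were not tested. Among those, COL1A1, a fibrillar collagen gene, averaged 3.08 at 24 h and 2.84 at 48 h against 1.73 in untreated cells. All treated arrays lay above all untreated ones, but the lowest at 48 h was 2.23 against an untreated highest of 2.18. The mean of COL3A1 was lower, at 1.37 and 1.44 against 1.68, and the groups overlapped for COL3A1 and DCN. KRT7, also untested, was higher without overlap, at 2.38 and 1.97 against 1.65. All these values lie where GDF15 in treated cells could not be told from background, or lower. LUM was at −0.37 at 24 h and 0.33 at 48 h, with overlapping groups. Endothelial, leukocyte and podocyte markers stayed at or below 2.07, 1.70 and 2.03. Fewer cells of a kind and less RNA per cell cannot be told apart in such samples, and the part of the epithelial and fibroblast markers in the GDF15 difference was not tested.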

How the data were processed

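The deposited table holds 22277 probe sets on 9 arrays as log2 values, made by the authors with GCRMA per the submitters' processing notes, which corrects background by probe sequence, normalizes between arrays and summarises each set. No source used here gives its version, and the log base was read from the highest value of 12.5. The values were used with no further normalization. Control sets (62) were left out. The platform annotation gave 19064 sets 1 symbol, 1043 several and 2108 none, and 19052 were updated by gene ID through RefSeq. The brightest set with 1 symbol stood for each of 11963 genes, and 4368 genes that reached a log2 value of 4 on 3 or more arrays were tested.

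One limma fit (version 3.58.1, lmFit and eBayes, under R 4.3.3) took all 9 arrays, with Benjamini-Hochberg adjustment over the 4368 genes, a threshold of 0.05 and 95% intervals. A gene therefore has the same SE in every comparison. Without the block, p-values measure differences against the spread between the runs of a group. With the block, they measure them against the spread left after the level of each run is removed. On simulated data for 24 h against untreated (4368 genes, 200 changed, 10 draws), 16.2% of log2 changes of 0.5, 67.7% of changes of 1 and 95.3% of changes of 2 were called, and 5.23% of calls were false. The simulated arrays were independent, with no effect of the run, so these rates need not hold for the real arrays.

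The replicate numbers in the titles were taken to mark the days on which the experiment was run: the correlation of deviations from group means was 0.378 to 0.662 where arrays shared a number and −0.526 to 0.185 where they did not. The median SE was 0.191 without and 0.139 with the number as a block. The members and lists were chosen with earlier results of these data known. Genes named are all members, up to 6 genes past the threshold in each list (the 2 with the smallest p where none passed), the cell type markers and the 8 genes most correlated with GDF15; others are said to be named after their values were seen. Alternatives were the block, 2 other filters, the mean over probe sets or every probe set, quantile normalization, an intensity trend, only the groups compared, and leaving out arrays or runs. Motifs were counted in RefSeq windows with Python 3.11.15.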

Additional observations from a re-analysis of the deposited data

How the results depend on the processing

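The count of members called at 24 h was 1, from 1 to 2 with 1 array or run left out (2 without untreated replicate 3, where DDIT3 passed), 3 with the replicate block and 0 with the mean over probe sets, where GDF15 fell below the filter because its second set is at background. At 48 h the count was 2, and 1 with no filter, the stricter filter, the mean over probe sets, quantile normalization, the intensity trend or only the groups compared, and 1 to 2 with arrays or runs left out (2 without untreated replicate 3). With the mean over probe sets that 1 member was DDIT3, because GDF15 was again below the filter. In the other settings with a count of 1 it was GDF15. DDIT3 lost its 48 h call under 15 of 19 alternatives and was not tested with the stricter filter. GDF15 was lower under all 19 in which it was tested, from −4.41 to −3.65 at 24 h and from −4.02 to −3.39 at 48 h. Several of these settings, such as the block, the filters and the intensity trend, leave the compared values as they are. They can change a p-value but not a difference of group means, so they say nothing on its direction. CEBPB passed only with the replicate block. Over all genes, 210 were called at 24 h, 501 with the replicate block, 124 with only the groups compared and 34 to 213 with arrays or runs left out (105 without untreated replicate 1, 130 and 116 without 24 h replicates 2 and 3, 138 without 48 h replicate 1). At 48 h 194 were called, 438 with the replicate block and 33 to 206 with arrays or runs left out (112 and 111 without 48 h replicates 1 and 3, 119 without untreated replicate 1). The comparison of 48 h with 24 h gave 0 throughout. CEBPD and TP53I3 lost their calls only without run 1 (adjusted p from 0.104 to 0.223). Of 1026 single-gene values under alternatives, 970 kept direction and call, and 19 changed sign, none of them past the threshold. Among the 970, values from settings that cannot change a difference kept their direction by construction. With the mean over probe sets NCK1 at 48 h was at 0.082; the rest came from leaving out arrays or runs, where the ranges were −0.039 to 0.64 for GDF15, −0.14 to 0.0098 for ATF4 and −0.23 to 0.53 for ASNS at 48 h against 24 h. At 24 h they were −0.14 to 0.61 for ASNS, −0.21 to 0.17 for PHGDH, −0.033 to 0.20 for XPOT and −0.083 to 0.30 for CLPP, and at 48 h −0.087 to 0.049 for NCK1. Values near the array medians limit what can be read of GDF15, DDIT3 and SCNN1A in treated cells, of SLC7A11 and in part SLC7A5 in untreated cells and of ATF3 and PPP1R15A.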
